A study of Rattus norvegicus with 4 samples.

Results

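The genes described here are the Wnt ligands of the rat lung with the enzyme that prepares them for release, their Frizzled and Lrp receptors, the R-spondins and Lgr receptors, the secreted Wnt antagonists, and the effectors and targets of the pathway. The set was a list of 48 gene symbols, matched exactly to the symbols of the count tables. Of these names, 47 were found among the 22050 genes listed, and Fzd10 was not analysed here. They were measured by messenger RNA sequencing of whole lung from SD rats, an outbred laboratory strain. The bleomycin group held 2 rats given a single intratracheal dose of 5 mg/kg bleomycin in 0.2 mL. Bleomycin, a cancer drug that cuts DNA strands, is a common means of producing lung fibrosis in rodents. The control group held 2 rats given the same volume of saline, and the lungs of both groups were collected on day 28. The labels give neither age nor sex, and each library stands for 1 rat at 1 time point.

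Wnt proteins are lipid-modified secreted signals that bind Frizzled receptors. In the canonical branch, Frizzled and the coreceptors Lrp5 and Lrp6 together stop the destruction of beta-catenin, which then enters the nucleus and acts with Tcf and Lef factors on target genes. Other branches act through cell polarity proteins and calcium. R-spondins, through Lgr receptors, keep Frizzled on the cell surface, while secreted antagonists bind either the ligand or the coreceptor. In the mouse lung the pathway is known for its part in airway branching and in the upkeep of alveolar type 2 cells.

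Gene counts summed to 39168063 and 44381111 in the bleomycin libraries and to 34683699 and 43533928 in the control libraries. Levels are written as CPM, counts per 1000000 counts of the library after TMM scaling, with library 1 before library 2 in each group. A count of 3 equals 0.0681 to 0.0868 CPM, depending on the library. A gene was called higher or lower when its adjusted p in edgeR's quasi-likelihood test fell below 0.05 over all 15709 genes tested. With 2 rats in each group, an exact two-sided permutation test on a single value cannot go below 0.333. All 8 genes of a lung marker list had at least 6280 counts in every library. Genes of alveolar type 1 cells fell in bleomycin lungs in 10 of 10 tested, with summed levels of 2887 and 4351 CPM in bleomycin and 8748 and 8907 CPM in control lungs. Genes of fibroblasts rose in 5 of 10 tested and fell in 0, against 6 higher and 0 lower both by unadjusted p and by DESeq2, with sums of 15678 and 8529.7 CPM in bleomycin and 3587 and 3610.1 CPM in control lungs. Of the airway epithelial genes tested 5 of 8 fell and 0 rose, though 1 was higher by unadjusted p. That gene, Krt5, had 445 and 61 counts in the bleomycin libraries and 10 and 0 in the controls (edgeR adjusted p = 0.0713). Of the macrophage genes 4 of 8 rose and 0 fell. Alveolar type 2 genes had 0 calls among 9 tested, with 3 lower and 0 higher by unadjusted p and the same counts by DESeq2. Heart muscle genes summed to 119 and 69.7 CPM in bleomycin and 199.9 and 37.8 CPM in control lungs. Control library 1 had the highest sum and control library 2 the lowest, and the source of these reads was not tested.

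In all, 16 members changed. Of these, 10 were higher in bleomycin lungs, 23.8% of the 42 tested against 9.26% of all genes tested, and 6 were lower, 14.3% against 7.79%. Members called in either direction made up 38.1%, against 17.0% of all genes. Members higher in bleomycin lungs were the ligands Wnt2, Wnt5a and Wnt7b, the receptor Fzd1, the R-spondin Rspo3, and the antagonists Sfrp1, Sfrp2, Frzb, Dkk2 and Dkk3. Those lower in bleomycin lungs were the ligands Wnt2b and Wnt7a, the receptors Fzd4 and Fzd8, the transcription factor Tcf7 and the feedback inhibitor Nkd1. Both bleomycin libraries lay above both controls for 17 members and below both for 16, while 9 overlapped. Among all genes tested, 35.1% lay above and 33.4% below, so non-overlap was common. The median log2 fold change of the tested members was -0.13, beside 0.01 over all genes. The calls by edgeR were lost on leaving out either control library, where a lone control gives no measure of that group's spread. All 16 called members had groups without overlap, so omitting a library could not turn their direction. That they kept it is therefore no further result. Counts by unadjusted p and by DESeq2 are given without the share over all genes, so they cannot show whether listed genes were in excess. The members were chosen with earlier results of these data known, so their shares by edgeR cannot show that either.

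**Figure D1:**
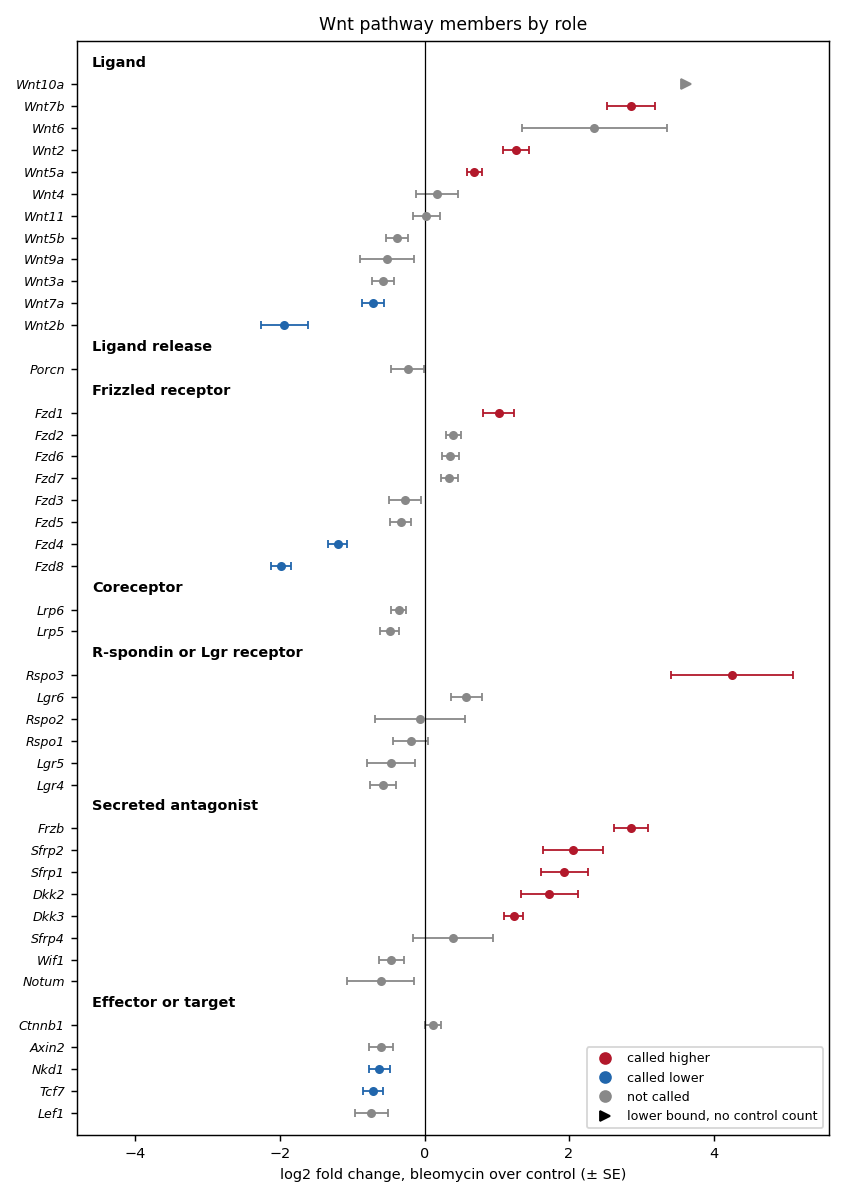
Log2 fold change of bleomycin over control for the tested members, grouped by role, with bars of 1 standard error and an arrowhead at the lower bound of Wnt10a. Red marks the 10 members called higher, blue the 6 called lower and grey those not called by edgeR's quasi-likelihood test, and the 5 called antagonists lie between 1.23 and 2.86.

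Among the 15 ligands listed, 12 were tested, 3 rose, 2 fell and 7 did not pass the test. Wnt7b (ENSRNOG00000015750), a ligand made by lung epithelium in the mouse embryo, had 18.9 and 11.2 CPM in bleomycin lungs and 2.11 and 2.04 CPM in control lungs. The groups were well apart, and the 2 controls were nearly equal. The level was 7.24-fold higher in bleomycin lungs, a log2 change of 2.86 ± 0.33 (SE; edgeR adjusted p = 0.0136). Wnt2 (ENSRNOG00000051905), known in the mouse as a ligand of the lung mesenchyme, had 9.85 and 10.2 CPM in bleomycin lungs and 4.40 and 3.94 CPM in control lungs. It was 2.41-fold higher in bleomycin lungs, with a log2 change of 1.27 ± 0.18 (SE; edgeR adjusted p = 0.0186), and the spread within each group was small against the gap. Wnt5a (ENSRNOG00000015618), the best known ligand of the branches that do not need beta-catenin, had 35.2 and 36.0 CPM in bleomycin lungs and 22.1 and 22.0 CPM in control lungs. The difference was 1.61-fold, smaller than for Wnt7b and Wnt2, with replicates that nearly coincided in both groups (edgeR adjusted p = 0.0203).

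The ligands that fell were both close relatives of ligands that rose. Wnt2b (ENSRNOG00000014385), which acts with Wnt2 when the lung is specified in the mouse embryo, had 3.65 and 1.95 CPM in bleomycin lungs and 11.8 and 9.58 CPM in control lungs. It was 3.84-fold lower in bleomycin lungs, a log2 change of -1.94 ± 0.32 (SE; edgeR adjusted p = 0.0236), with both bleomycin libraries well below the controls. Wnt7a (ENSRNOG00000048782), the paralogue of Wnt7b, had 22.7 and 29.4 CPM in bleomycin lungs and 41.1 and 44.2 CPM in control lungs. It was 1.64-fold lower in bleomycin lungs (edgeR adjusted p = 0.0392), and here too the groups did not overlap. Beside the fall of Wnt7a stands the fall of all 10 tested alveolar type 1 genes given above, and the part of that loss in the Wnt7a value was not tested. In whole lung, fewer cells of a type and less RNA per cell cannot be told apart, for this and every other gene.

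Compared per gene length, the ligand with the highest mean over the 4 libraries was Wnt3a, a ligand that acts through beta-catenin, with 11.3 and 14.6 FPKM in bleomycin lungs and 19.2 and 19.2 FPKM in control lungs. In counts it had 29.5 and 38.6 CPM in bleomycin lungs and 50.8 and 50.4 CPM in control lungs, a log2 change of -0.57 ± 0.15 (SE) that did not pass the test (edgeR adjusted p = 0.0596). Wnt4, a ligand with roles in kidney and gonad formation, was at 73.8 and 39.5 CPM in bleomycin lungs and 47.6 and 52.8 CPM in control lungs, so the bleomycin libraries lay on either side of the controls (edgeR adjusted p = 0.707). Per length it had 21.4 and 11.3 FPKM in bleomycin lungs and 13.7 and 15.3 FPKM in control lungs, so Wnt4 led the ligands in bleomycin library 1 and Wnt3a in the other libraries. The ligands' summed level was 82.2 and 68.3 FPKM in bleomycin lungs and 79.0 and 79.3 FPKM in control lungs, and these ranges overlapped. Within that sum, Wnt7b made up 9.54% and 6.69% in bleomycin lungs and 1.09% and 1.06% in control lungs. Wnt2b made up 2.52% and 1.59% in bleomycin lungs and 8.39% and 6.82% in control lungs. So these 2 ligands changed places in the pool, while the ranges of its sum overlapped.

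Of the remaining tested ligands, Wnt6, Wnt10a and Wnt11 had fitted changes above 0, and Wnt5b and Wnt9a below 0, with none passing the test. Wnt10a was listed with 21 and 18 counts in the bleomycin libraries and 0 in both controls, at least 12.3-fold higher in bleomycin lungs when the controls are set to 3 counts over the pair (edgeR adjusted p = 0.0680). Wnt6 had 133 and 30 counts in the bleomycin libraries and 20 and 10 in the controls, so bleomycin library 1 carried most of its reads (edgeR adjusted p = 0.158). A further 3 ligands were too low to test. Wnt3 had 13 and 4 counts in the bleomycin libraries and 0 and 4 in the controls, Wnt10b had 0 and 2 in the bleomycin libraries and 0 in both controls, and Wnt16 had 2 and 5 in the bleomycin libraries and 0 in both controls. At this depth no difference was detectable for those 3 genes. Porcn, the membrane enzyme that attaches the lipid a Wnt needs for release, had 555 and 426 counts in the bleomycin libraries and 519 and 561 in the controls, which overlapped as CPM (edgeR adjusted p = 0.493).

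**Figure D2:**
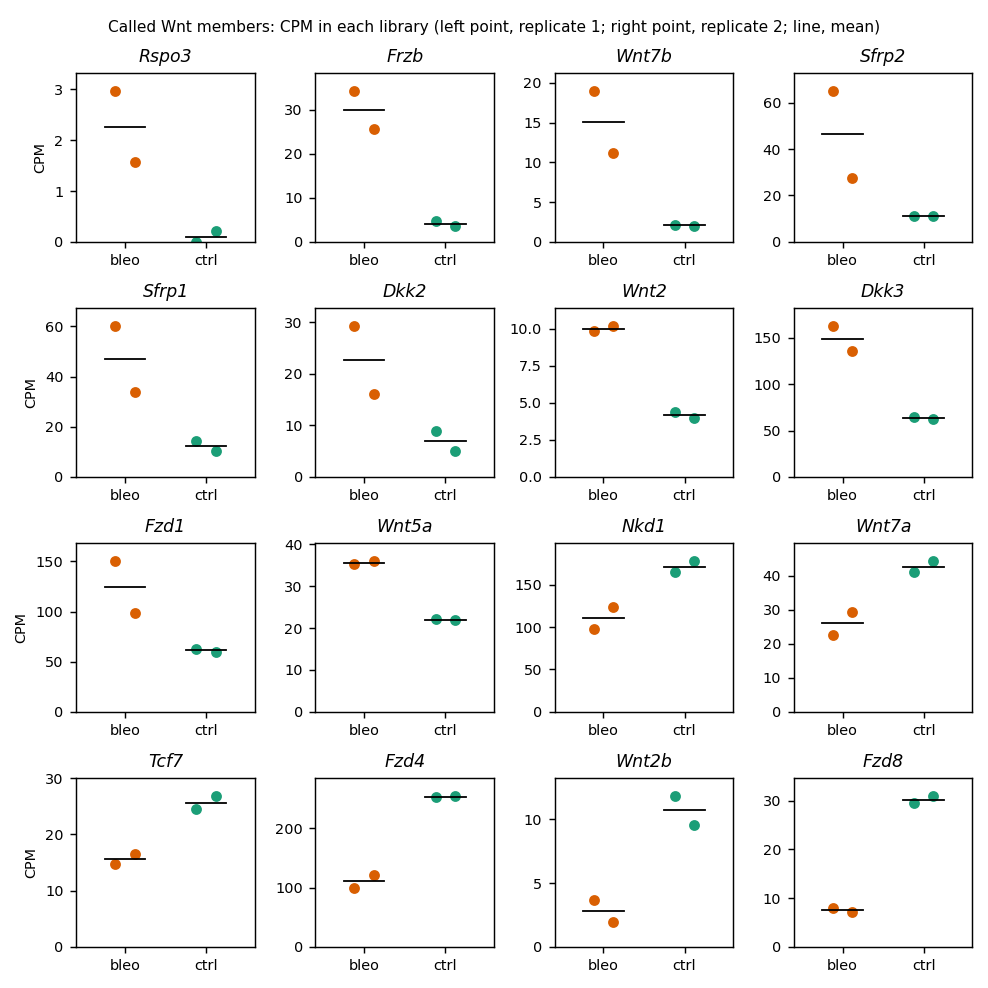
Level in CPM in each library for the 16 called members, bleomycin left of control in each panel, with the group mean as a line and each y axis starting at 0. The groups do not overlap in any panel, and relative to their mean the bleomycin points are widest apart for Sfrp2, at 64.9 and 27.7 CPM in bleomycin lungs and 11.0 and 11.2 CPM in control lungs.

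Frizzled receptors moved in both directions. Of the 8 tested, Fzd1 rose, Fzd4 and Fzd8 fell, and 5 did not pass the test. Fzd8 (ENSRNOG00000061031), a receptor for canonical ligands, had 8.05 and 7.21 CPM in bleomycin lungs and 29.5 and 30.9 CPM in control lungs. It was 3.96-fold lower in bleomycin lungs, with a log2 change of -1.98 ± 0.14 (SE; edgeR adjusted p = 0.00884), and the bleomycin libraries differed by little beside that gap. Fzd4 (ENSRNOG00000016848), which besides Wnts binds norrin and is needed for retinal vessel growth, had 99.4 and 121 CPM in bleomycin lungs and 252 and 254 CPM in control lungs. It was 2.29-fold lower in bleomycin lungs, a log2 change of -1.20 ± 0.13 (SE; edgeR adjusted p = 0.0130). Fzd1 (ENSRNOG00000016242), a receptor of wide expression, had 150.2 and 98.9 CPM in bleomycin lungs and 62.8 and 59.6 CPM in control lungs. It was 2.03-fold higher in bleomycin lungs (log2 change 1.02 ± 0.21, SE; edgeR adjusted p = 0.0352), with bleomycin library 1 well above library 2 and both above the controls.

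These shifts changed which Frizzled led. Fzd4 was the most abundant receptor per length in both control lungs and ranked 3 in both bleomycin lungs, with 12.6% and 16.9% of the summed Frizzled FPKM in bleomycin lungs and 32.5% and 31.9% in control lungs. Fzd1 made up 29.6% and 21.4% in bleomycin lungs and 12.6% and 11.7% in control lungs. The sum itself was 116 and 104 FPKM in bleomycin lungs and 113 and 117 FPKM in control lungs, so its FPKM ranges overlapped. Summed as CPM, without scaling to length, it was 416 and 386 in bleomycin lungs and 476 and 482 in control lungs. By that measure both bleomycin lungs lay below both controls. Fzd2, a receptor of the mesenchyme that carries Wnt5a signals in the mouse, had the highest mean FPKM over the 4 libraries but led in bleomycin library 2 alone, Fzd1 leading in library 1. Fzd2 had 63.9 and 59.6 CPM in bleomycin lungs and 45.7 and 47.8 CPM in control lungs. Its groups did not overlap, and its log2 change of 0.40 ± 0.10 (SE) fell just short of the threshold (edgeR adjusted p = 0.0519). For Fzd3, Fzd5, Fzd6 and Fzd7 the edgeR adjusted p ranged from 0.0937 to 0.42. Fzd9 had 9 and 8 counts in the bleomycin libraries and 4 and 13 in the controls and was not tested.

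The value of Fzd4 stood beside lower endothelial genes in the same lungs. Of the 8 tested genes of that list 4 fell and none rose, with 0 higher also by unadjusted p and by DESeq2. Both bleomycin libraries lay below both controls for 6 of these genes and above both for 1, and 1 overlapped. Together the 8 genes had 1925 and 2694 CPM in bleomycin lungs and 5222 and 4618 CPM in control lungs. Their part in the Fzd4 value was not tested. Cldn5, a tight junction gene of that list, had 0 counts in bleomycin library 1.

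The coreceptors Lrp5 and Lrp6, which pair with Frizzled in the canonical branch, both lay lower in the bleomycin libraries without passing the test. Lrp5 had 140.5 and 165 CPM in bleomycin lungs and 228 and 199.8 CPM in control lungs, a log2 change of -0.48 ± 0.13 (SE; edgeR adjusted p = 0.0650). Lrp6 had 122 and 136 CPM in bleomycin lungs and 166 and 165 CPM in control lungs (edgeR adjusted p = 0.0756).

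Of the R-spondins and their Lgr receptors, Rspo3 was called among the 6 tested. Rspo3 (ENSRNOG00000011568), known in the mouse for its role in vessel formation, had 117 and 69 counts in the bleomycin libraries and 0 and 9 in the controls, which is 2.96 and 1.57 CPM in bleomycin lungs and 0 and 0.206 CPM in control lungs. The fitted change was 19.1-fold higher in bleomycin lungs, with a log2 change of 4.25 ± 0.85 (SE; edgeR adjusted p = 0.0302). Its size rests on few control reads. It was 10.7-fold without control library 1 and at least 26.1-fold without control library 2, where the remaining control had no read and was set to 3 counts. Rspo1, the most abundant of this group, was at 29.8 and 19.6 CPM in bleomycin lungs and 24.3 and 32.0 CPM in control lungs, and its groups overlapped (edgeR adjusted p = 0.604). Rspo2 overlapped as well (edgeR adjusted p = 0.952). The receptors Lgr4, Lgr5 and Lgr6 did not pass, with edgeR adjusted p from 0.0823 to 0.357. Rspo4, the remaining R-spondin and no member of the set, had 91 and 52 counts in the bleomycin libraries and 0 in both controls. It was at least 45.4-fold higher in bleomycin lungs against 3 counts over both controls (edgeR adjusted p = 0.0312).

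Secreted antagonists had the largest share of called members of any role with more than 1 gene, 62.5%. Of the 8 tested, 5 rose in bleomycin lungs, none was called lower, and 3 did not pass, with a median log2 change of 1.48 beside 0.01 over all genes. Taken without adjustment, edgeR's p was below 0.05 for 1 lower antagonist, Wif1, and DESeq2 called 0 lower. The wider list described below held 7 more tested antagonists, secreted or on the membrane, which as a group did not share that rise. Of them 1 was called higher and 0 lower (14.3%), with a median log2 change of 0.03. Unadjusted p was below 0.05 for 1 higher and 2 lower. The Sfrp proteins and Frzb resemble the ligand-binding part of Frizzled and hold Wnts outside the cell. Frzb (ENSRNOG00000007765) had 34.2 and 25.6 CPM in bleomycin lungs and 4.72 and 3.57 CPM in control lungs. It was 7.26-fold higher in bleomycin lungs, with a log2 change of 2.86 ± 0.23 (SE; edgeR adjusted p = 0.00947), a gap far wider than either group's spread. Sfrp1 (ENSRNOG00000017783) had 60.0 and 33.9 CPM in bleomycin lungs and 14.5 and 10.2 CPM in control lungs, 3.82-fold higher in bleomycin lungs (log2 change 1.93 ± 0.33, SE; edgeR adjusted p = 0.0246). Sfrp2 (ENSRNOG00000009465) had 64.9 and 27.7 CPM in bleomycin lungs and 11.0 and 11.2 CPM in control lungs, 4.16-fold higher in bleomycin lungs (log2 change 2.06 ± 0.42, SE; edgeR adjusted p = 0.0338). Bleomycin library 1 set much of that size, which was 2.48-fold without it, although library 2 alone still lay above both controls.

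Dkk proteins act at the coreceptor rather than on the ligand, except Dkk3, a divergent relative whose binding partners are less settled. Dkk3 (ENSRNOG00000016343) had 163 and 136 CPM in bleomycin lungs and 64.3 and 62.8 CPM in control lungs. It was 2.35-fold higher in bleomycin lungs, with a log2 change of 1.23 ± 0.12 (SE; edgeR adjusted p = 0.0121) and groups far apart. Dkk2 (ENSRNOG00000011360) had 29.2 and 16.1 CPM in bleomycin lungs and 8.86 and 4.95 CPM in control lungs, 3.31-fold higher in bleomycin lungs (log2 change 1.73 ± 0.40, SE; edgeR adjusted p = 0.0442). Its replicates differed widely in both groups, and without bleomycin library 1 the call was lost (edgeR adjusted p = 0.0894). Dkk1, often studied as a Wnt target, had 0 counts in all 4 libraries, where 3 counts would be at most 0.0868 CPM.

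Wif1, which binds Wnt ligands directly, lay lower in both bleomycin libraries without passing the test. It was the most abundant antagonist per length in all 4 libraries, with 49.6 and 67.3 FPKM in bleomycin lungs and 77.3 and 83.6 FPKM in control lungs. In counts it had 110.4 and 152 CPM in bleomycin lungs and 174 and 187 CPM in control lungs, a log2 change of -0.46 ± 0.17 (SE; edgeR adjusted p = 0.123). Wif1 made up 33.5% and 52.1% of the summed antagonist FPKM in bleomycin lungs and 74.3% and 77.7% in control lungs. The sum was 148 and 129 FPKM in bleomycin lungs and 104 and 108 FPKM in control lungs, so both bleomycin lungs lay above both controls. Sfrp4, with 31 and 57 counts in the bleomycin libraries and 15 and 48 in the controls, and Notum, the enzyme that strips the lipid from Wnts, overlapped between the groups (edgeR adjusted p = 0.642 for Sfrp4 and 0.385 for Notum).

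**Figure D3:**
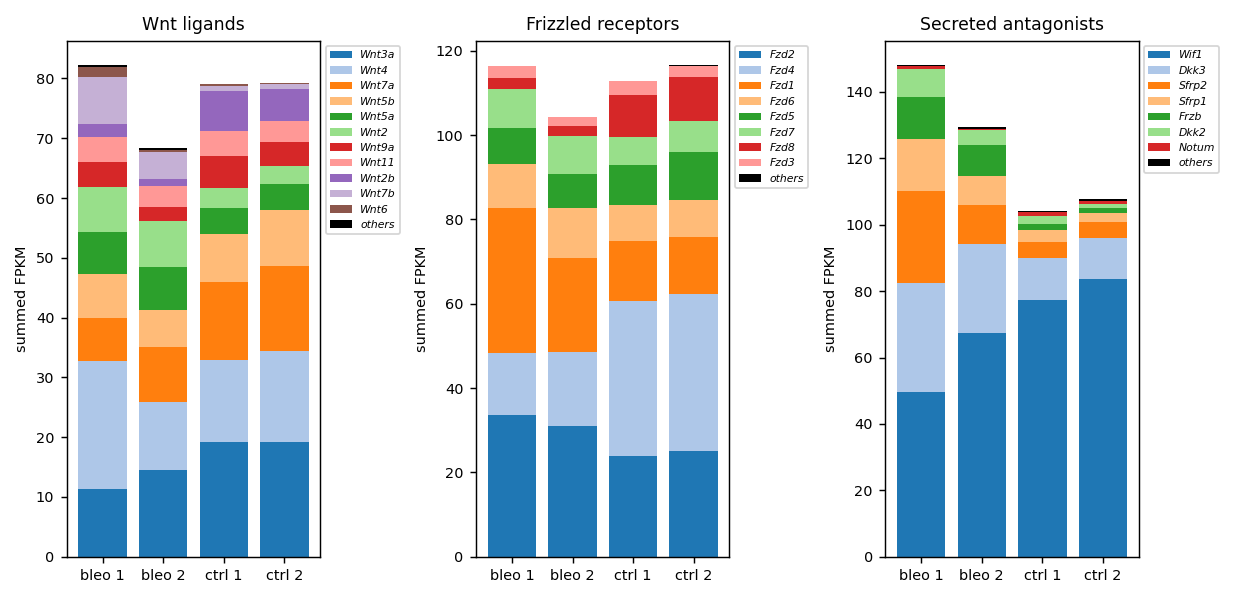
Makeup of the ligand, Frizzled and antagonist RNA in each library, as stacked FPKM per gene with bleomycin libraries left of controls. The antagonist stacks reach 148 and 129 FPKM in bleomycin lungs and 104 and 108 FPKM in control lungs, and the Wif1 segment takes 33.5% and 52.1% of the stack in bleomycin lungs, against 74.3% and 77.7% in control lungs.

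The 5 antagonists rose in the same lungs in which 5 of 10 fibroblast genes were called higher, with the sums given above. Of that list 4 genes overlapped between the groups, and its most abundant gene per length was Col3a1. Smooth muscle and pericyte genes, a second list, rose in 2 of 9 tested and fell in 0. By unadjusted p and by DESeq2 alike, 6 of that second list were higher and 0 lower. Its sum was 2831 and 1771 CPM in bleomycin lungs and 1239.6 and 1694 CPM in control lungs. Bleomycin library 1 had the higher sum of both lists, and it was also the library farther from the controls for 8 of the 10 higher members, the exceptions being Wnt2 and Wnt5a. It was the farther one for 80.3% of all called genes too. The part of fibroblasts, smooth muscle cells and pericytes in the antagonist values was not tested.

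Downstream of the receptors, Tcf7 and Nkd1 fell, none of the 5 effectors and targets rose, and 3 did not pass. Unadjusted, edgeR's p was below 0.05 for 4 lower and 0 higher members of the group, and DESeq2 called 3 lower and 0 higher. Beta-catenin itself, encoded by Ctnnb1 and the most abundant member per length, had 577 and 609.6 CPM in bleomycin lungs and 547 and 548 CPM in control lungs, a log2 change of 0.12 ± 0.11 (SE; edgeR adjusted p = 0.501). Tcf7 (ENSRNOG00000005872), a DNA-binding partner of beta-catenin with a large role in T cells, had 14.8 and 16.5 CPM in bleomycin lungs and 24.5 and 26.8 CPM in control lungs. It was 1.64-fold lower in bleomycin lungs (log2 change -0.71 ± 0.13, SE; edgeR adjusted p = 0.0286). Nkd1 (ENSRNOG00000014293), an inhibitor of Dishevelled that Wnt signalling itself induces, had 98.3 and 124 CPM in bleomycin lungs and 165 and 178 CPM in control lungs. It was 1.54-fold lower in bleomycin lungs, with a log2 change of -0.63 ± 0.14 (SE; edgeR adjusted p = 0.0424), and its groups did not overlap. Axin2, the most widely used readout of canonical signalling and a scaffold of the beta-catenin destruction complex, had 44.9 and 47.9 CPM in bleomycin lungs and 80.6 and 60.2 CPM in control lungs. Its controls differed from each other by more than the bleomycin libraries did, and its log2 change of -0.60 ± 0.16 (SE) did not pass (edgeR adjusted p = 0.0613). Lef1, the sister factor of Tcf7, had 3.75 and 4.47 CPM in bleomycin lungs and 6.05 and 7.61 CPM in control lungs, again without passing (edgeR adjusted p = 0.0823).

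T cells express both Tcf7 and Lef1. Of the 9 T cell genes tested, 1 rose and none fell, while unadjusted p was below 0.05 for 2 higher genes and 1 lower gene and DESeq2 called 1 higher and 1 lower, and their sum was 178 and 171 CPM in bleomycin lungs and 135 and 155 CPM in control lungs. The 1 gene called higher was Cd4, which also had the highest level in that sum and which macrophages of the rat also carry. Cd4 had 104 and 107 CPM in bleomycin lungs and 60.3 and 71.3 CPM in control lungs. The receptor chain gene Cd3e, which defines T cells, had 6.79 and 6.24 CPM in bleomycin lungs and 8.05 and 9.32 CPM in control lungs (edgeR adjusted p = 0.163). Both Cd3e values in bleomycin lungs lay below both controls, as for 5 of the 9 genes. Cd2, another T cell surface gene, lay the other way, with 13.9 and 12.4 CPM in bleomycin lungs and 8.63 and 9.55 CPM in control lungs (edgeR adjusted p = 0.0774), and 2 of the 9 overlapped. The part of T cells in the Tcf7 value was not tested.

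Tcf and Lef factors bind DNA at a core of the letters CTTTGA or, on the other strand, TCAAAG. The 250 bases before the start of Axin2, Nkd1, Tcf7 and Lef1 are shown, since these are the 4 members of the effector and target group that lay below both controls. They are RefSeq sequences on build GRCr8, in the gene's direction from 5′ to 3′, with the core in capitals on either strand. Axin2 lies at chr10:94398535-94398784 on the plus strand, Nkd1 at chr19:34722847-34723096 on the minus strand, Tcf7 at chr10:36954280-36954529 on the minus strand and Lef1 at chr2:222340463-222340712 on the plus strand.
Axin2: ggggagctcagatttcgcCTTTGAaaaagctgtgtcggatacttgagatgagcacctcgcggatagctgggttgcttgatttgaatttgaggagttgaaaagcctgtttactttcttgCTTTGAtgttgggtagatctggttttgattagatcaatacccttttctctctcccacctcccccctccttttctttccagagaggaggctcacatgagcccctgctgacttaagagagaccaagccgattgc
Nkd1: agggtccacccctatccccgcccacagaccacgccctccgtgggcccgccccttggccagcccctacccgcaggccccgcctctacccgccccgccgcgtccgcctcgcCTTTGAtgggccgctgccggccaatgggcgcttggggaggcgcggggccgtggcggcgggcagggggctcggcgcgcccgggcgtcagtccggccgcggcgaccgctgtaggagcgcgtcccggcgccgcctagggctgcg
Tcf7: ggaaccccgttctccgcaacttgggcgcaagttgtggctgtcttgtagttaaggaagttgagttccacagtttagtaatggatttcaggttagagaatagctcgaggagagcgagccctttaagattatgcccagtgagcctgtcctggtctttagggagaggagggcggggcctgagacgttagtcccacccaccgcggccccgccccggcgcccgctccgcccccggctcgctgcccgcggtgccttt
Lef1: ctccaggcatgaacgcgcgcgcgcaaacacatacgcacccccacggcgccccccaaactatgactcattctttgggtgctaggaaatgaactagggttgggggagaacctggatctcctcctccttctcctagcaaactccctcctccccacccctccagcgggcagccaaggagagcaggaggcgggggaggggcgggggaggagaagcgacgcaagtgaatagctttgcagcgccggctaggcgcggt
The core stands at 2 places in Axin2, beginning 232 and 132 bases before the start, and at 1 place in Nkd1, beginning 141 bases before it. The windows of Tcf7 and Lef1 hold neither spelling, which says only that these letters are not there. Promoters were found for 32 of the members, and 4 of them, or 12.5%, held the core: Axin2, Nkd1, Fzd7 and Dkk1. Over all 33469 promoters in the table the share was 13.9%. The core was in 0 of the 6 promoters found for members that rose and in 1 of the 6 found for members that fell. G and C made up 65.5% of the members' windows and 52.2% over all promoters, so these shares were not matched for base composition. For members that rose it was 59.6% and for those that fell 70.5%. The overlap of the 2 spellings with other motifs was not searched.

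**Figure D4:**
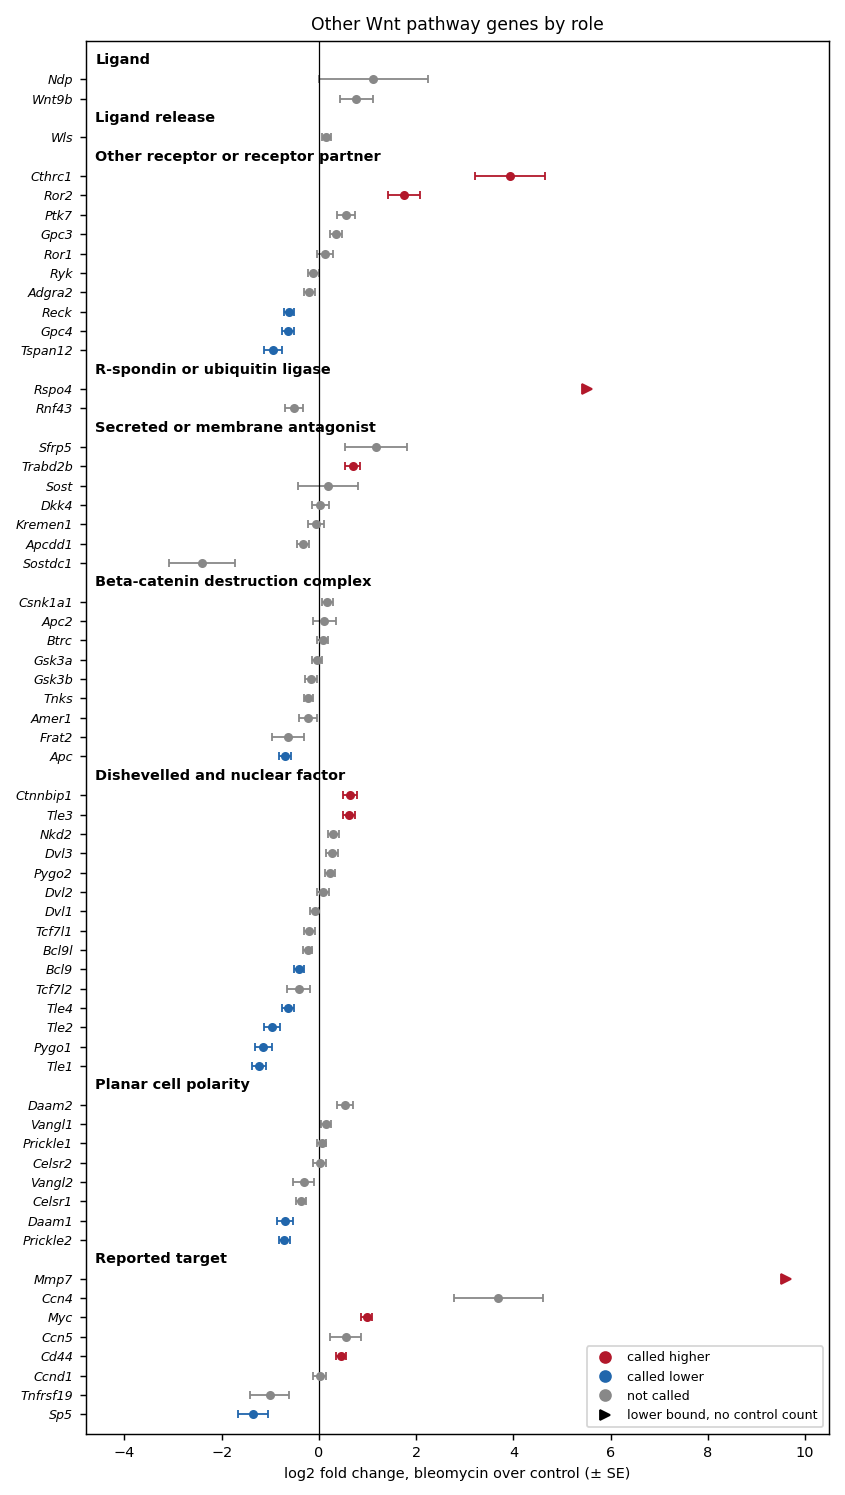
Log2 fold change of bleomycin over control, with bars of 1 standard error, for the 62 tested Wnt pathway genes outside the set, grouped by role. Rspo4 and Mmp7, with no control read, are drawn as arrowheads at the lower bound against 3 counts, 9 genes are called higher (red) and 12 lower (blue).

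A wider list of 73 further Wnt pathway genes was examined for the rest of the machinery, of which 69 were found and 62 tested. Of those, 9 were higher (14.5%, against 9.26% of all genes) and 12 lower (19.4%, against 7.79%), and their median log2 change was 0.01. Leaving out either one of the control libraries left 0 of them called by edgeR. DESeq2 with all 4 libraries called 12 higher and 13 lower. The largest called fold among receptor partners was that of Cthrc1, a secreted protein of activated fibroblasts that in the mouse helps Wnts bind Frizzled and Ror2. It had 49.4 and 13.6 CPM in bleomycin lungs and 1.65 and 2.43 CPM in control lungs, 15.2-fold higher in bleomycin lungs (edgeR adjusted p = 0.0283). The bleomycin libraries were far apart, and the fold was 6.55 without bleomycin library 1 and 23.8 without library 2. Ror2, the tyrosine kinase receptor of Wnt5a, had 40.6 and 21.4 CPM in bleomycin lungs and 8.45 and 9.99 CPM in control lungs, 3.35-fold higher in bleomycin lungs (edgeR adjusted p = 0.0302).

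Other receptor partners were lower. Reck, which in mouse brain vessels is needed for the response to Wnt7a and Wnt7b, had 63.9 and 62.9 CPM in bleomycin lungs and 98.5 and 95.7 CPM in control lungs, 1.53-fold lower in bleomycin lungs (edgeR adjusted p = 0.0200). Gpc4, a cell surface heparan sulphate proteoglycan, had 44.8 and 51.2 CPM in bleomycin lungs and 80.0 and 69.9 CPM in control lungs, 1.56-fold lower in bleomycin lungs (edgeR adjusted p = 0.0307). The fifth called partner was Tspan12, a membrane protein that assists Fzd4 in norrin signalling, with 79.6 and 113 CPM in bleomycin lungs and 191 and 181 CPM in control lungs. It was 1.93-fold lower in bleomycin lungs (edgeR adjusted p = 0.0309), as its partner receptor Fzd4 was 2.29-fold lower.

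In the nucleus, corepressors and coactivators were both among the lower genes. Tle1, a corepressor that Tcf factors recruit when beta-catenin is absent, had 21.2 and 26.6 CPM in bleomycin lungs and 56.3 and 55.8 CPM in control lungs, 2.34-fold lower in bleomycin lungs (edgeR adjusted p = 0.0131). Its relative Tle2 was 1.95-fold lower (edgeR adjusted p = 0.0236), whereas Tle3 was 1.54-fold higher, with 98.6 and 114 CPM in bleomycin lungs and 65.7 and 72.2 CPM in control lungs (edgeR adjusted p = 0.0301). Pygo1, a coactivator that reaches beta-catenin through Bcl9, was 2.21-fold lower in bleomycin lungs, with 11.0 and 14.4 CPM in bleomycin and 26.2 and 29.9 CPM in control lungs (edgeR adjusted p = 0.0209). Tle4 and Bcl9 were also called lower, though Bcl9 not without the low-count filter (edgeR adjusted p = 0.0511). Ctnnbip1, which blocks the contact of beta-catenin with Tcf, was called higher, a call lost without bleomycin library 1 (edgeR adjusted p = 0.0649). Of the 9 destruction complex genes tested, Apc, the tumour suppressor scaffold, was called, with 86.3 and 103 CPM in bleomycin lungs and 152 and 156 CPM in control lungs, 1.62-fold lower in bleomycin lungs (edgeR adjusted p = 0.0259). Among polarity genes, Prickle2 was 1.64-fold and Daam1 1.62-fold lower in bleomycin lungs (edgeR adjusted p = 0.0216 for Prickle2 and 0.0434 for Daam1), and the Daam1 call was lost without bleomycin library 1 (edgeR adjusted p = 0.0603). Trabd2b, a membrane protease that cuts Wnt ligands, was 1.61-fold higher in bleomycin lungs (edgeR adjusted p = 0.0430), again not without bleomycin library 1 (edgeR adjusted p = 0.0687).

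Genes reported elsewhere as Wnt targets did not move one way. Of 8 tested, 3 rose and 1 fell. Myc, a growth factor-responsive transcription factor, had 1894 and 2290 counts in the bleomycin libraries and 858 and 1127 in the controls, 1.97-fold higher in bleomycin lungs (edgeR adjusted p = 0.0129). Mmp7, a protease of injured lung epithelium, had 1566 and 906 counts in the bleomycin libraries and 0 in both controls, at least 785-fold higher in bleomycin lungs against 3 counts over both controls (edgeR adjusted p = 0.0128). Cd44, the hyaluronan receptor, was 1.37-fold higher in bleomycin lungs (edgeR adjusted p = 0.0476), a call lost with median-of-ratios scaling (0.0502) and without the low-count filter (0.0534). Sp5, a transcription factor directly induced by Wnt in mouse embryos, had 3.80 and 7.08 CPM in bleomycin lungs and 12.8 and 15.1 CPM in control lungs, 2.56-fold lower in bleomycin lungs (edgeR adjusted p = 0.0441). Sp5 thus lay on the same side as Axin2, Nkd1 and Lef1, and Myc, Mmp7 and Cd44 on the other. Of the 4 targets not called, Ccn4 was 12.9-fold higher in bleomycin lungs (edgeR adjusted p = 0.0520). Tnfrsf19 was 2.02-fold lower (edgeR adjusted p = 0.130), and for both the groups did not overlap. Ccnd1 and Ccn5 overlapped. Myc stood beside 8 of 8 cell cycle genes called higher, and the part of cycling cells in its value was not tested.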

How the data were processed

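The authors deposited 1 table per library with gene counts and FPKM values. Per the labels' protocols, mRNA was selected on oligo(dT) beads from TRIzol extracts, and cDNA was primed at random after fragmentation. The build was Rnor_6.0, and the tools named were HISAT2, DESeq2, StringTie 1.3.1, fastp 0.18.0 and CASAVA 1.8, all per the submitters' processing notes. Strand use in counting is not stated. The deposited counts are whole reads per gene, and the deposited FPKM values were scaled by the authors to gene length and library total. FPKM were used here to compare levels between genes, shares within a role, and the levels and sums in each library. No test was run on them.

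Counts of the 2 bleomycin and 2 control libraries were fitted in R 4.3.3 with edgeR 4.0.16 (quasi-likelihood F test, robust, TMM scaling). filterByExpr with a minimum count of 10 and a total of 15 left 15709 of 22050 genes, and p-values were adjusted by Benjamini-Hochberg over all of them. CPM were computed from library totals times the TMM factor, which ran from 0.993 to 1.01. A standard error is the log2 change divided by the root of F. Where both controls had 0 counts, a lower bound was set with 3 counts over both. These floors cover counting error only, whereas the standard errors take in the spread between rats. The 2 libraries of a group come from separate rats per the labels and differed by more than sampling noise. The mean chi-squared per gene against sampling noise was 96.65 in the bleomycin pair and 22.58 in the control pair. Genes with many counts weigh most in that mean, so it is not the ratio of a typical gene. The residual degrees of freedom were 2. Promoter sequences and coordinates come from RefSeq, build GRCr8, and other coordinates are not given because that is not the authors' build. The alternatives were median-of-ratios scaling, DESeq2 1.42.0, no low-count filter, a term for the replicate number, and leaving out each library.

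The members, the wider Wnt list, the cell marker lists and the tests were chosen with earlier results of these data known. Per-library values are given for every called member and for the most abundant tested member of each role by FPKM. In the wider list at most 4 called genes of each role are described with values, those with the smallest p. Tspan12, Tle4, Bcl9, Ctnnbip1, Ccn4, Tnfrsf19, Ccnd1 and Ccn5 were added after their values were seen. So were Wnt4, Wnt6, Wnt10a, Lrp6, Axin2, Lef1, Cd3e, Cd2 and Krt5. Fzd10, Znrf3, Axin1, Tnks2 and Frat1 and the marker genes Pecam1, Foxj1 and Il7r were not analysed here.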

Additional observations from a re-analysis of the deposited data

How the results depend on the processing

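The same 16 members were called with median-of-ratios scaling and without the low-count filter, and DESeq2 called 23 members, among them all 16. It called 11 members lower against 6 with edgeR, and 1887 genes lower over all genes. Leaving out 1 library at a time gave between 0 and 13 higher members, 0 and 10 lower members, 0 and 12 higher and 0 and 15 lower genes of the wider list, and over all genes 12 to 2827 higher and 8 to 2554 lower. Without control library 1 or 2 no member passed, and the lone control is assumed to vary like the bleomycin pair. DESeq2 with all 4 libraries called 12 higher and 11 lower. Without bleomycin library 1, Dkk2 lost its call, as did Trabd2b, Ctnnbip1 and Daam1 in the wider list. The fold of Dkk2 was 2.36 without bleomycin library 1 and 4.29 without library 2. With 1 bleomycin library left, that group's spread is not measured, so the number of calls is no result about the members. The members' median log2 change ran from -0.32 to 0.05 over these fits. The cause of these shifts was not tested.

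Among members not called, the log2 change turned when 1 library was left out. Over these fits Porcn ran from -0.53 to 0.015, Rspo1 from -0.53 to 0.078, Rspo2 from -0.82 to 0.80, Sfrp4 from -0.082 to 1.26, Wnt11 from -0.11 to 0.15 and Wnt4 from -0.36 to 0.55. Same-numbered rats share only a number: with the replicate number as a block, 11 members were called higher and 6 lower, 1331 and 1100 over all genes, and deviations of same-numbered libraries had a correlation of -0.0437 over 13737 genes. In the wider list the block ended the calls of Cthrc1, Trabd2b, Ctnnbip1, Daam1, Bcl9 and Cd44 (adjusted p from 0.0513 to 0.0896). Cd44 also missed the threshold with median-of-ratios scaling (0.0502) and without the filter (0.0534), as did Bcl9 without the filter (0.0511). Depth limits Wnt3, Wnt10b, Wnt16, Fzd9 and Dkk1, whose counts were too low to test.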
